A study of Macaca mulatta with 14 samples.

Results

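The aminoacyl-tRNA synthetases are the enzymes that join each amino acid to its transfer RNA. Their transcripts were followed in PBMC of male rhesus macaques, the mononuclear fraction of peripheral blood, which holds lymphocytes and monocytes. A list of 35 synthetase genes was used, 19 for cytosolic enzymes and 16 for mitochondrial ones, whose names end in 2. A gene counted as measured when the array annotation gave a probe set (a group of probes for 1 transcript) that gene alone, and its probe set with the highest mean log2 signal over all arrays stood for it. This found 25 of the 35 genes, against 14132 genes in the whole series, and 24 of them were bright enough to be tested, against 9355 genes in all. AARS1, CARS1, EPRS1, IARS1, NARS1, QARS1, RARS1, TARS1, IARS2 and VARS2 had no such probe set in the annotation used, and PARS2 lay below the signal filter. The arrays came from 7 animals on a control diet, aged 24 to 27 years, and 7 animals on calorie restriction (CR), aged 24 to 30 years. A duration of 16 years of restriction is stated for the study and was taken to be that of the CR animals. Neither the size of the restriction nor each animal's age was used here.

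A synthetase activates its amino acid with ATP and transfers it to the matching transfer RNA, and some members also remove wrongly attached amino acids. Most amino acids have separate nuclear genes for the cytosolic and the mitochondrial enzyme, while GARS1 and KARS1 supply both compartments from 1 gene each. Many cytosolic synthetase genes, though not all, are known targets of the transcription factor ATF4, which acts when amino acids run short and uncharged transfer RNA activates the kinase GCN2. WARS1 stands apart in leukocytes because interferon gamma induces it.

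All 14 arrays had the same trimmed mean signal of 500.0, so a change in total RNA per cell would not show. Each array's mean correlation with the others lay between 0.88 and 0.93 over the probe sets tested. Control 1 was lowest, at 0.88. The labelled cell mixture was visible in the marker genes: T cell (6 genes tested), B cell (8), NK cell (11) and monocyte (11) markers passed the signal filter. The median CR minus control difference in log2 signal was -0.47 for monocyte markers, with all 11 on the lower side. It was 0.38 for NK cell markers, with 8 of 11 on the higher side, 0.41 for T cell markers, with 5 of 6, and 0.22 for B cell markers, with 7 of 8. The NK cell list was uneven, from 1.16 for CST7 and FGFBP2 to 0.01 for KLRF1 on the higher side. The 3 on the lower side were GZMA (-0.57), SH2D1B (-0.13) and NCAM1 (-0.07). None of these markers passed the test over all probe sets (smallest adjusted p 0.918, limma). In a cell mixture, fewer cells of a type and less RNA per cell cannot be told apart.

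No synthetase differed between the diets beyond the threshold. Of the 24 genes tested, 0 had an adjusted p under 0.05 (limma, Benjamini-Hochberg over 26383 probe sets, of which 0% were called), and 1, SARS1, had an unadjusted p under 0.05, against 5.18% of all genes. SARS1 was on the higher side, as were 3.16% of all genes at that p, and 0 members were on the lower side, as were 2.02%. An ordinary linear model without variance moderation gave the same counts, 0 and 1. In CR, 13 of 24 members were on the higher side, which is 54.2%, and 54% of all genes tested were. The other 11 were on the lower side, as were 46% of all genes. The median difference was 0.03 on the log2 scale for the members and 0.03 for all genes. The members' differences ran from -0.17 for LARS1 to 0.52 for EARS2, and only EARS2 exceeded 0.5, which 8.17% of all genes did. The ranges of the diets overlapped in all 24 members, as they did in all but 0.0641% of genes.

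**Figure D1:**
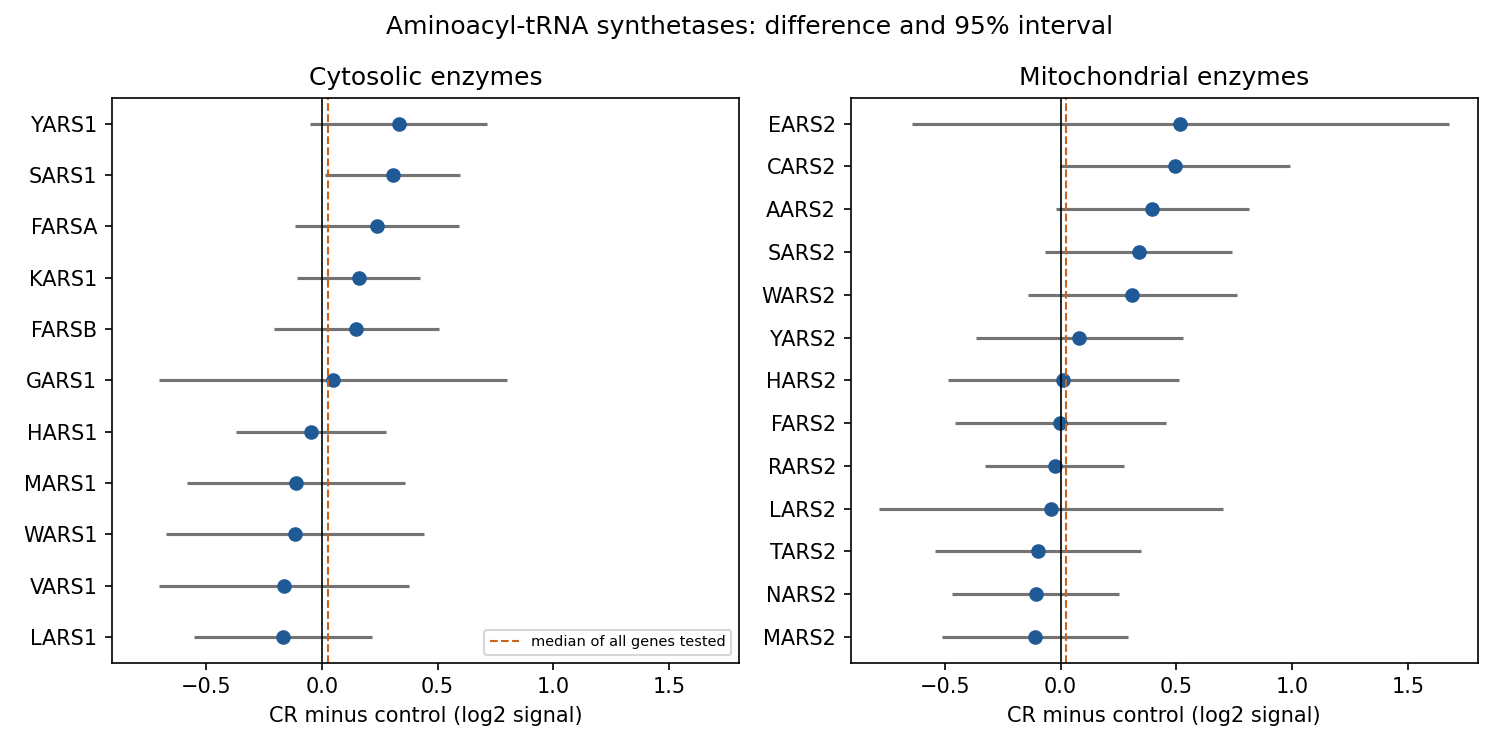
Difference in log2 MAS5 signal (CR minus control) for the 11 cytosolic and 13 mitochondrial synthetases tested, with the 95% interval of the moderated limma fit (n = 7 animals per diet); the dashed line is the median of all genes tested. Most intervals include 0, that of SARS1 lies just above it (0.02 to 0.60), and the interval of EARS2 is the widest.

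Among the cytosolic enzymes, 6 of 11 members were on the higher side and the median difference was 0.05. SARS1, which charges serine transfer RNA, had log2 signals from 11.28 to 12.02 in controls (median 11.73) and from 11.72 to 12.19 in CR (median 11.96). In CR, 6 of 7 animals lay above the control median, and the groups overlapped. The difference was 0.31 ± 0.14 (SE), a 1.24-fold ratio, with an unadjusted p of 0.0399 and an adjusted p of 0.918 (limma). YARS1, the tyrosine enzyme, whose secreted fragments act as cytokines, ran from 10.49 to 11.38 in controls (median 10.90) and from 10.91 to 11.50 in CR (median 11.20). All 7 CR animals lay above the control median, but 3 control animals were within the CR range, and the difference of 0.33 ± 0.18 did not pass (adjusted p 0.918, limma). Another, dimmer probe set of YARS1 gave 0.02 ± 0.29.

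The subunits of the phenylalanine enzyme, FARSA (the catalytic one) and FARSB, were at 0.24 ± 0.17 and 0.15 ± 0.17. FARSA spanned 8.15 to 9.00 in controls and 8.36 to 8.89 in CR, with medians of 8.52 and 8.83. CR 5 was the low value, and the other 6 CR animals lay within 8.78 to 8.89. KARS1, the lysine enzyme and a member of the multi-synthetase complex, ran from 14.45 to 14.96 in controls (median 14.76) and from 14.58 to 15.08 in CR (median 14.93), a difference of 0.16 ± 0.13 with a 95% interval of -0.11 to 0.42. Its 3 other probe sets gave 0.17, 0.12 and 0.14, so all 4 estimates for KARS1 lay close together, and none passed.

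Of the other cytosolic members, LARS1, the leucine enzyme that also senses leucine for mTORC1, was at -0.17 ± 0.18, with 1 of 7 CR animals above the control median. Its 2 other tested probe sets gave -0.27 ± 0.17 and -0.09 ± 0.19, the same side. Another probe set of LARS1, below the signal filter, had an untested difference of 0.66. Without control 1, the lowest control animal for LARS1, its difference was -0.31 ± 0.14 (unadjusted p 0.0474, adjusted p 0.794, limma). Its sign turned with its probe sets averaged (0.03 ± 0.17). The sign also turned with the GAPDH 3-prime to 5-prime ratio, a measure of RNA integrity and labelling, as a covariate (0.02 ± 0.15). MARS1, the methionine enzyme, was at -0.11 ± 0.22, and its other probe set was on the opposite side (0.17 ± 0.24). The valine enzyme VARS1 was at -0.16 ± 0.26 and the histidine enzyme HARS1 at -0.05 ± 0.15, with an interval of -0.37 to 0.28. The other probe set of HARS1 was on the opposite side (0.06 ± 0.15). GARS1, the glycine enzyme, had a dim probe set, running from 4.95 to 7.27 in controls (median 6.98) and from 5.69 to 7.25 in CR (median 6.80). Its difference of 0.05 ± 0.36 has a 95% interval of -0.70 to 0.80, which spans ratios from 0.61-fold to 1.74-fold.

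WARS1, the tryptophan enzyme, spanned 11.39 to 13.39 in controls (median 12.73) and 11.82 to 13.08 in CR (median 12.64). The ranges nearly coincided, control 1 was the lowest and control 3 the highest of the 14 animals, and the difference was -0.12 ± 0.26 (adjusted p 0.971, limma), or -0.32 ± 0.22 without control 1. WARS1 was on the opposite side without control 3 (0.02 ± 0.26) and with the GAPDH ratio as a covariate (0.06 ± 0.26). Its other probe sets gave -0.23 ± 0.27 and 0.09 ± 0.37. Its SD between animals was 0.61 in controls, exceeded among the cytosolic members by that of GARS1 (0.79), and 0.49 in CR.

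**Figure D2:**
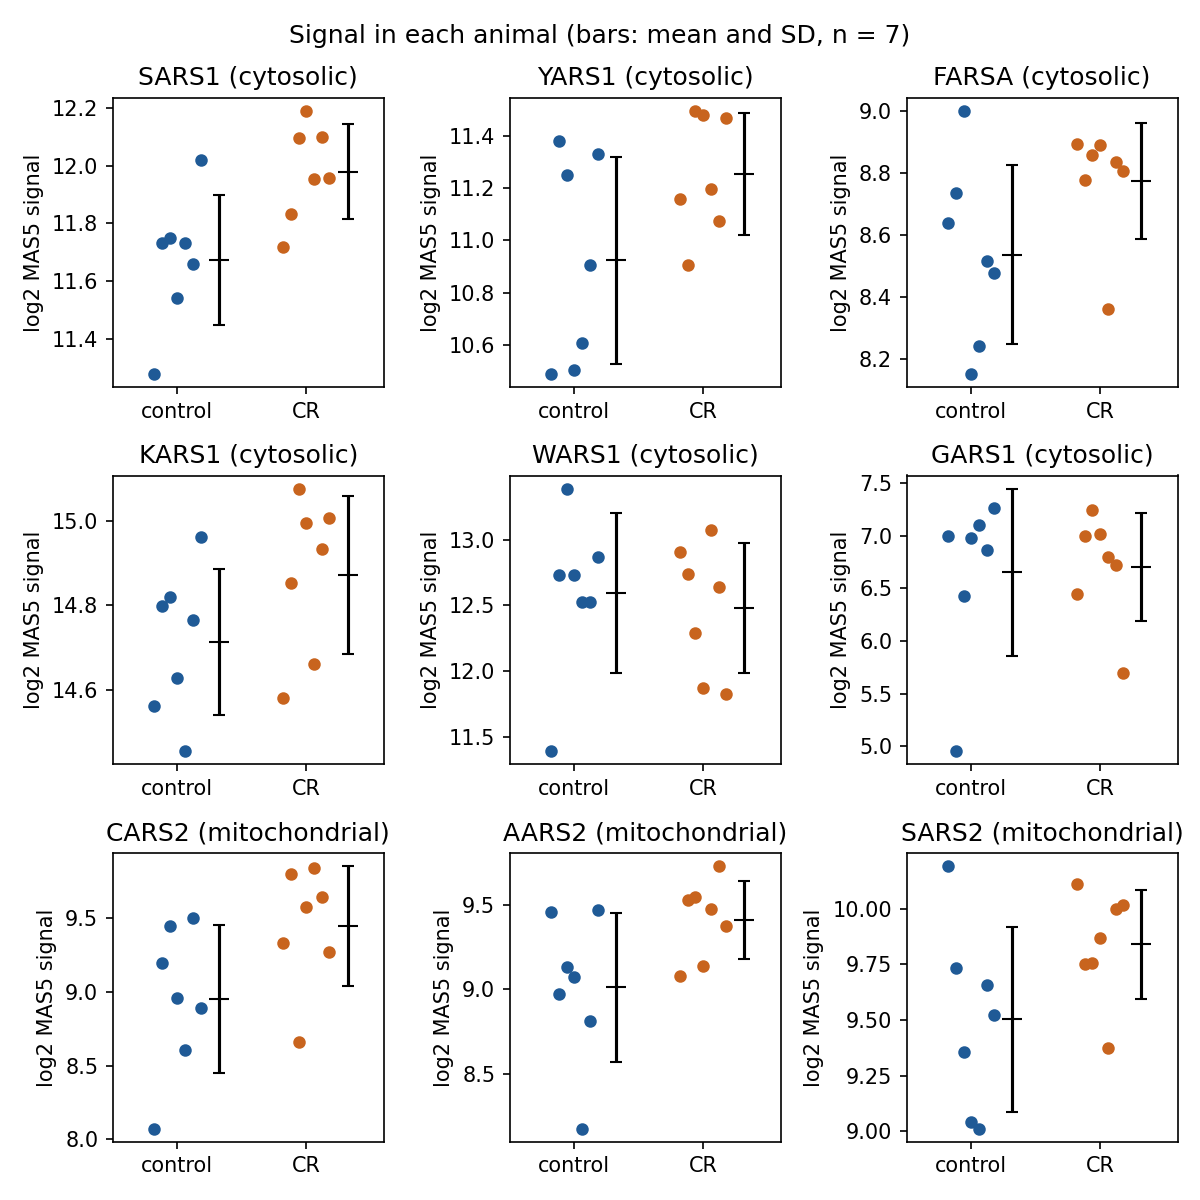
Log2 MAS5 signal of 9 synthetases in each animal (points; 7 control and 7 CR), with the mean and SD beside each group. The diets overlap in every panel; single low values include control 1 for SARS1, WARS1 and CARS2, and CR 5 for FARSA.

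Among the mitochondrial enzymes, 7 of 13 members were on the higher side and the median difference was 0.01. A set of 5 members (EARS2, CARS2, AARS2, SARS2 and WARS2) lay between 0.31 and 0.52, and the other 8 between -0.11 and 0.08. None of them passed. CARS2, the cysteine enzyme, which also makes cysteine persulfide, ran from 8.07 to 9.50 in controls (median 8.96) and from 8.66 to 9.84 in CR (median 9.58). In CR, 6 of 7 animals lay above the control median, and the difference was 0.49 ± 0.24 (unadjusted p 0.0517, adjusted p 0.918, limma). Without control 1, the lowest animal, it was 0.35 ± 0.21. The other probe set of CARS2 lay below the signal filter, with an untested difference of -0.15, and the mean of both gave 0.17 ± 0.31.

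AARS2, the alanine enzyme, ran from 8.18 to 9.47 in controls (median 9.07) and from 9.08 to 9.73 in CR (median 9.47). All 7 CR animals lay above the control median, while 3 control animals also lay above the lowest CR value, and the difference was 0.40 ± 0.20 (adjusted p 0.918, limma), or 0.26 without control 5. SARS2, the mitochondrial serine enzyme, ran from 9.01 to 10.19 in controls (median 9.52) and from 9.37 to 10.11 in CR (median 9.87), a difference of 0.34 ± 0.19 with 6 of 7 CR animals above the control median. The highest of the 14 values of SARS2 was in control 1, the animal with the lowest value for LARS1, SARS1 and WARS1. WARS2, the tryptophan enzyme of mitochondria, was at 0.31 ± 0.21 with 7 of 7 CR animals above the control median. WARS2 was at 0.17 ± 0.19 without control 1, and its sign turned with its probe sets averaged (-0.07 ± 0.28) and with cell type marker scores as covariates (-0.01 ± 0.24).

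EARS2, the glutamate enzyme, had the largest difference of the family, 0.52, but also the largest error, 0.55. In control 5 its signal was at the floor of 16, CR 4 was low as well, and its other tested probe set gave 0.72 ± 0.48. The difference of EARS2 was 0.10 ± 0.46 without control 5, 0.93 ± 0.46 without CR 4 and 0.34 without CR 7, and it turned to -0.46 ± 0.57 with cell type marker scores as covariates. For the remaining mitochondrial members the differences were 0.08 ± 0.21 for YARS2, 0.01 ± 0.24 for HARS2, -0.0004 ± 0.22 for FARS2, -0.02 ± 0.14 for RARS2, -0.04 ± 0.35 for LARS2, -0.10 ± 0.21 for TARS2, -0.11 ± 0.17 for NARS2 and -0.11 ± 0.19 for MARS2. RARS2, the arginine enzyme, was the most narrowly measured of these, with a 95% interval of -0.33 to 0.28, which is 0.80-fold to 1.21-fold. Another, dimmer tested probe set of RARS2 was on the opposite side (0.27 ± 0.47), as was the other probe set of MARS2 (0.08 ± 0.24). PARS2, which was not tested, averaged 6.43 in controls and 6.38 in CR on the log2 scale.

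At least 6 of the 7 CR animals lay above the control median in 9 of 24 members, 3 cytosolic and 6 mitochondrial, which is 37.5% against 16.7% of all genes. The opposite, at most 1 of 7, held for 3 members, LARS1, MARS1 and YARS2, against 11.5% of all genes. MARS2 was among the 9 although its mean was lower in CR, and YARS2 was among the 3 although its mean was higher in CR. With 1 control array left out the first count ran from 6 (25%, without control 5) to 10 (41.7%, without control 7). The shares of all genes in these settings were 13.6% and 18.6%. With each array centred on its median the first count was again 9, against 19.9% of all genes.

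Cytosolic and mitochondrial enzymes were next set against each other. In each animal, the mean of the cytosolic members minus the mean of the mitochondrial members, each gene centred over the 14 arrays, was 0.04 ± 0.16 (SD, n = 7) in controls and -0.04 ± 0.15 in CR. The ranges, -0.14 to 0.34 and -0.26 to 0.20, overlapped over most of their length. The median difference of the cytosolic members was -0.05 without GARS1 and KARS1, which serve both compartments, so the small gap between the compartments' medians turned with that choice. Of the 8 pairs of a cytosolic and a mitochondrial gene for 1 amino acid (FARSA and FARSB each against FARS2), 4 had the same sign of difference, for leucine, methionine, serine and tyrosine. The count rests in part on signs well within their errors, as for FARS2 (-0.0004 ± 0.22), HARS2 (0.01 ± 0.24) and LARS2 (-0.04 ± 0.35). For serine both genes were on the higher side by similar amounts (0.31 for SARS1 and 0.34 for SARS2). For tryptophan they were on opposite sides (-0.12 for WARS1 and 0.31 for WARS2). The log2 difference of WARS2 minus WARS1 was -3.98 ± 0.40 (SD) in controls and -3.56 ± 0.59 in CR, with 6 of 7 CR animals above the control median. As these are different probe sets, that value is no ratio of transcript amounts, and its shift between diets was not tested.

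The same pairs were compared across animals, to ask whether the enzymes of both compartments vary together. YARS1 and YARS2 had a Pearson r of 0.67 (permutation p 0.00832, 0.0666 after adjustment over the 8 pairs) and a Spearman rho of 0.61 (permutation p 0.0228, adjusted 0.140) over 14 animals. Pearson's r was 0.71 within controls, 0.70 within CR and 0.51 without control 1 and control 4. HARS1 and HARS2, which are next to each other in the RefSeq order of protein-coding genes on assembly T2T-MMU8v2.0, had an r of 0.57 (permutation p 0.0362, adjusted 0.145) and a rho of 0.57 (permutation p 0.0350, adjusted 0.140). It was 0.53 within controls and 0.61 within CR, and 0.36 without control 2 and CR 2. None of the 8 pairs passed the adjustment, and r for the other 6 ran from -0.15 to 0.38. After removal of the diet means, the median r was 0.11 over 55 pairs of cytosolic members, 0.05 over 78 mitochondrial pairs and 0.15 over 143 mixed pairs, against 0.005 over all pairs of genes tested. These medians are descriptions, since all pairs share the same arrays.

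The spread between animals was also set out by diet, as a description with no test. In 19 of 24 members, 8 cytosolic and 11 mitochondrial, the SD was smaller in CR than in control, which is 79.2% against 54.2% of all genes. The median SD of the members was 0.44 in controls and 0.25 in CR, and over all genes 0.42 and 0.39. Leaving out 1 animal moved this: without control 1 the count was 13 of 24, or 54.2%, against 44.9% of all genes, and the members' median SD in controls was 0.36. Control 1 had the lowest signal of the 14 arrays in 11 of 24 members, or 45.8%, against 14.8% of all genes. It had the highest in 1, or 4.17%, against 15.9% of all genes. Control 5 was lowest in 5 more, or 20.8%, against 15.8% of all genes. Control 1 was also the array with the highest GAPDH 3-prime to 5-prime log2 ratio, a measure of RNA integrity and labelling. It was 7.50 there, 5.06 to 6.84 in the other controls and 6.03 to 6.87 in CR. The mean ratio was 6.14 in controls and 6.58 in CR. For EF1A the ratio was also highest in control 1 (5.38). For actin it was highest in CR 2 (12.78) and was 10.67 in control 1. The part of RNA quality in the low values was not tested.

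**Figure D3:**
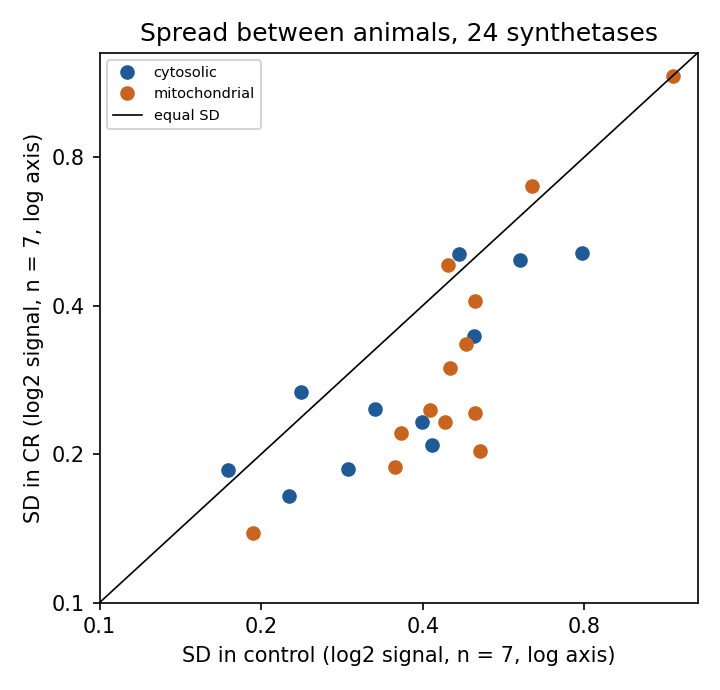
SD of log2 MAS5 signal between the 7 CR animals against that between the 7 control animals for the 24 synthetases tested, on log axes; the line marks equal SD. Of the 24 points, 19 lie below the line, and 13 do when control 1 is left out.

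None of the tested genes that work with the synthetases passed the threshold. Of 6 tested genes for scaffold proteins of the multi-synthetase complex, editing of mischarged transfer RNA and nuclear export of transfer RNA, 3 were on the higher side (median 0.02) and 0 passed. The scaffold proteins AIMP1, AIMP2 and EEF1E1 were at 0.21 ± 0.20, 0.12 ± 0.13 and -0.12 ± 0.18. AARSD1, which removes wrongly attached serine from alanine transfer RNA, was at 0.60 ± 0.38, and DTD2, another editing enzyme, at -0.24 ± 0.21. Of 11 partners in mitochondrial transfer RNA charging and translation, 7 were on the higher side (median 0.04) and 0 passed. QRSL1, a subunit of the amidotransferase that makes mitochondrial glutaminyl-tRNA, was at 0.34 ± 0.17 and TRNT1, which adds the CCA end to transfer RNA, at -0.38 ± 0.26.

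Of 10 tested genes for eIF2, its exchange factor eIF2B, the kinase EIF2AK3, GCN2 regulators and ATF4, 7 were on the higher side. The median of the 10 was 0.07, and 0 passed. GCN2 itself (EIF2AK4), the kinase that uncharged transfer RNA activates, had no single-gene probe set, nor had EIF2AK1 and EIF2AK2. EIF2AK3 was at -0.27 ± 0.19. EIF2B3, a subunit of eIF2B, was at 0.38 ± 0.15, with 7 of 7 CR animals above the control median. IMPACT, an inhibitor of GCN2 activation, was at -0.48 ± 0.20, with 0 of 7 above it. Their unadjusted p-values were 0.0180 and 0.0281, and both had an adjusted p of 0.918 (limma). ATF4 itself was at 0.13 ± 0.31. Of 15 tested ATF4 targets outside the synthetase family, 5 were on the higher side, with a median of -0.10, and 0 passed. ASNS, asparagine synthetase, was at -0.23 ± 0.33, while ALDH18A1 and PHGDH, enzymes of proline and serine synthesis, were at 0.39 ± 0.23 and 0.29 ± 0.19. Of 9 tested amino acid transporters 4 were on the higher side (median -0.11) and 0 passed, with SLC43A2 at -0.64 ± 0.34 and SLC38A1 at 0.44 ± 0.33.

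**Figure D4:**
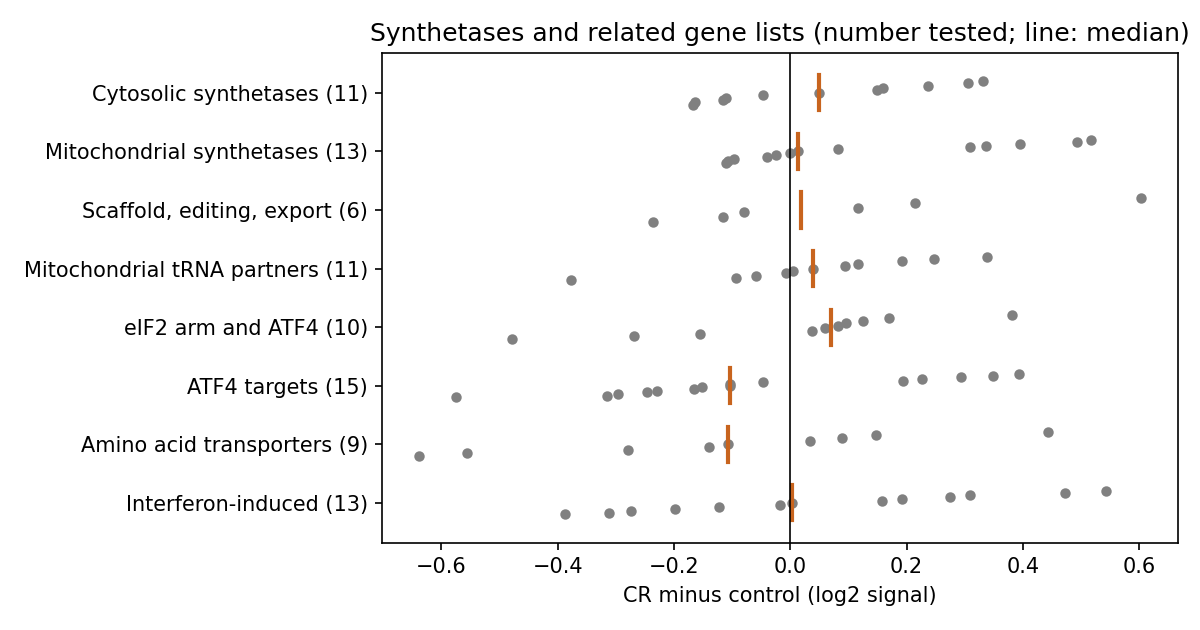
Difference in log2 MAS5 signal (CR minus control) of each tested gene (points) in the synthetase groups and 6 related lists, with the number of genes tested; the orange line is the median of a list. The medians lie between -0.11 and 0.07, and every list has genes on both sides of 0.

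Interferon-induced genes other than WARS1 were centred near 0 between the diets, with 7 of 13 on the higher side, a median of 0.002 and 0 passing. NLRC5, an activator of MHC class I genes, was at 0.54 ± 0.21, and PSMB8, an immunoproteasome subunit, at 0.47 ± 0.41. They differed widely between animals, from -0.59 in control 1 to 0.55 in CR 1 as the mean of centred log2 values. Across the 14 animals WARS1 had a Pearson r of 0.76 with this score (permutation p 0.00111) and a Spearman rho of 0.69 (permutation p 0.00814). After adjustment over the 48 pairs of a member and either the interferon or the ATF4 target score, these were 0.0533 and 0.130, so neither passed. Pearson's r for WARS1 was 0.71 within controls, 0.87 within CR and 0.73 without control 1 and control 5, and 2.54% of all genes had an r at least as high.

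HARS2 was as close to the interferon score as WARS1, with an r of 0.75 (permutation p 0.00240, adjusted 0.0576) and a rho of 0.69 (permutation p 0.00806, adjusted 0.130). It kept an r of 0.69 within controls, 0.85 within CR and 0.88 without control 1 and control 5. For WARS2 the r of 0.63 (permutation p 0.0126, adjusted 0.121; rho 0.67, permutation p 0.0101, adjusted 0.130) was 0.95 within controls, -0.15 within CR and 0.36 without control 1 and control 5. In all, 20 of 24 members had an r above 0 with this score, against 53.8% of all genes, and 8 had an r above 0.5, against 14.8%. Without control 1 and control 5 the counts were 14 of 24, against 51.3% of all genes, and 5, against 14.5%. Within controls 22 of 24 members had an r above 0, against 54% of all genes, and within CR 13 did, against 52.3%. With the ATF4 target score 15 of 24 members had an r above 0, against 50.1% of all genes, and 1 had an r above 0.5, against 11.6%. That was LARS1, whose r 6.76% of all genes reached, at 0.59 (permutation p 0.0255, adjusted 0.175; rho 0.59, permutation p 0.0285, adjusted 0.228), with 0.69 within controls and 0.61 within CR, and 0.64 without CR 6 and CR 7.

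**Figure D5:**
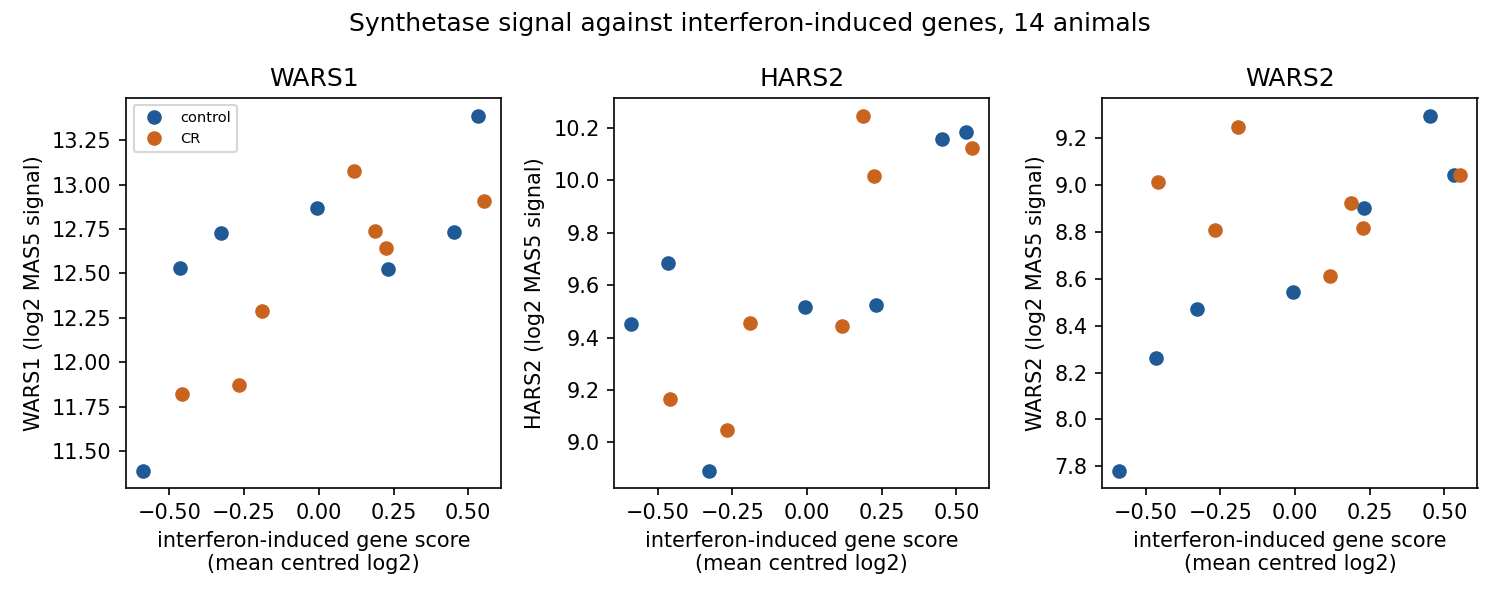
Log2 MAS5 signal of WARS1, HARS2 and WARS2 in each of 14 animals against the mean centred log2 signal of 13 interferon-induced genes. Within controls and within CR, r was 0.71 and 0.87 for WARS1, 0.69 and 0.85 for HARS2, and 0.95 and -0.15 for WARS2; the difference between diets was not tested.

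Marker scores of cell types, the mean of centred log2 values over a list, stood beside these differences. The monocyte score ran from -0.49 to 0.81 in controls and from -1.57 to 0.84 in CR, lowest in CR 6 and CR 7, and the NK cell score from -0.60 to 0.20 and from -0.08 to 0.36. With T cell, B cell, NK cell and monocyte scores as covariates, the differences were 0.23 ± 0.17 for SARS1, 0.02 ± 0.18 for YARS1, 0.04 ± 0.22 for AARS2, 0.01 ± 0.23 for SARS2 and 0.40 ± 0.30 for CARS2. YARS1, AARS2 and SARS2 were near 0 in that fit. SARS1 and CARS2 were further from 0 but did not pass (unadjusted p 0.198 and 0.199, limma). The mean scores differed between the diets, at -0.21 in controls and 0.21 in CR for T cells. They were -0.09 and 0.09 for B cells, -0.19 and 0.19 for NK cells and 0.28 and -0.28 for monocytes. That fit therefore cannot tell diet and cell mixture apart. In the same fit 4 of 11 cytosolic and 5 of 13 mitochondrial members were on the higher side. VARS1, at -0.59 ± 0.27, was the only member with an unadjusted p under 0.05 (0.0442, adjusted p 0.999, limma), and TARS2 was at -0.47 ± 0.23. Without CR 6 and CR 7 and with no covariate, SARS1 was at 0.29 ± 0.16, YARS1 at 0.32 ± 0.21, AARS2 at 0.34 ± 0.22, SARS2 at 0.27 ± 0.22 and CARS2 at 0.49 ± 0.27.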

How the data were processed

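Each of 14 animals gave 1 Affymetrix array of PBMC RNA. The authors deposited linear signal intensity from MAS5, which the submitters' processing notes name without a version. No batch, scan date or detection call was used. No 2 arrays shared more than 1 identical value.

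Signals under 16 were set to 16 and log2 was taken. Without 99 AFFX controls, the 50% of the 52865 probe sets with the higher mean log2 were tested, 26383 in all, with a mean signal of at least 87.7. Probe sets were named from the platform annotation (24969 with 1 symbol, 361 with several, 27535 with none), and the symbols of all 48 member probe sets matched the current RefSeq gene table by Entrez ID. CR minus control was fitted with limma 3.58.1 in R 4.3.3 (lmFit, eBayes with trend, two-sided, no covariate), Benjamini-Hochberg adjusted over the tested probe sets, threshold 0.05. On simulated arrays of 26383 probe sets for this comparison, 38% of shifts of 1 log2 unit and 89.5% of shifts of 2 were found. The simulated noise was normal and independent between probe sets, and shifts as small as the members' differences were not simulated. Permutation p-values are two-sided, from 100000 resamples (NumPy 2.4.6); scores are means of centred log2. The number of arrays limits the precision (median SE 0.25).

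The members and lists were chosen with earlier results of these data known, so no set test or p over the members as a list is given. By the rule for named genes, ranges are given for the 3 members of each compartment with the smallest p and for WARS1, GARS1 and KARS1 (EPRS1 was also named but not measured), and differences for the rest. From each related list the rule takes the 2 genes with the smallest p, plus ATF4, ASNS, AIMP1, AIMP2 and EEF1E1 (EIF2AK4 had no single-gene probe set). The pairs for 1 amino acid, the spread by diet and the animal counts were added after seeing the data. Marker lists for neutrophils (4 tested, 0 higher in CR), platelets (8, 3 higher), plasma cells (7, 3 higher) and erythroid cells (1, 1 higher) had 0 genes past the threshold.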

Additional observations from a re-analysis of the deposited data

Results flagged for a closer look

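Within a diet, 8 of 50 sets of 7 values held an animal far from the others, with its gap to the nearest animal a large share of the group's range. For independent, normally distributed values the rule would flag about 1 in 20. These sets share arrays, and the share over all genes was not computed, so no excess is read from the count. All 8 were low values. In controls these were LARS1 (gap 0.574 of the range) and NARS2 (0.572), both in control 1, GARS1 in control 2 (0.637) and EARS2 in control 5 (0.621), where the signal was at the floor of 16. In CR they were FARSA in CR 5 (0.780), EARS2 in CR 4 (0.668), LARS2 in CR 6 (0.728) and PARS2 in CR 1 (0.655). GARS1, EARS2, LARS2 and PARS2 had mean log2 signals from 6.41 to 6.81, near the filter at 6.45.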

How the results depend on the processing

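Under each of 27 alternatives, 0 probe sets and 0 synthetases had an adjusted p under 0.05 (limma or a linear model), and the smallest adjusted p of a member ran from 0.676 with the GAPDH ratio as a covariate to 0.999 without control 5 and with cell type scores as covariates. The number of members with an unadjusted p under 0.05, 1 as reported, was 0 to 3 with 1 array left out. Which members they were changed: without control 1 they were SARS2, AARS2 and, on the lower side, LARS1, with SARS1 at p 0.0789 (limma), and with cell type scores the 1 member was VARS1, on the lower side. It was 3 with quantile normalization, median centring or array weights, 2 with the GAPDH ratio as a covariate, 0 without CR 6 and CR 7 and 2 without control 1 and CR 2, these last 2 chosen after seeing the data. The sign of either compartment's median turned with the setting. The cytosolic median, 0.05, ran from -0.09 (cell type scores as covariates) to 0.18 (GAPDH ratio), and from -0.03 to 0.14 with 1 array left out. It was also below 0 with a floor of 64 (-0.05). The mitochondrial median, 0.01, ran from -0.05 (without control 4) to 0.12 (without CR 6 and CR 7) and was also below 0 with array weights, cell type scores as covariates or averaging over all probe sets of a gene. SARS1, YARS1, FARSB, CARS2, AARS2 and SARS2 stayed on the higher side and VARS1 on the lower side in all 27, and the unadjusted p of SARS1 was under 0.05 in 16 of them. The replicate numbers did not pair the animals (r of same-numbered arrays from -0.11 to 0.18, and 1 of 7 control arrays correlated best with its own number), and the fit with the replicate number as a block called 0 members, with a smallest adjusted p of 0.758. Of the 13 other tested probe sets of 9 members, 5 had the opposite sign. Centring each array on its median left the r of WARS1 with the interferon score at 0.77.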

Other observations

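The synthetases fall into structural classes, I and II, by the fold of the catalytic domain. Of 12 tested class I members 5 had a higher mean in CR (median difference -0.03), and of 12 tested class II members 8 had (median 0.10), against 54% and 0.03 for all genes. No member of either class passed the threshold, and the difference between the classes was not tested.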
